A study of Mus musculus with 2 samples.

Results

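Cadherins and protocadherins are cell-surface proteins of the cadherin superfamily, and their genes were selected by symbol: Cdh, Pcdh and Celsr genes and the clustered Pcdha, Pcdhb and Pcdhg genes with at least 100 UMIs (unique molecular identifiers, each a counted RNA molecule) over both sections. Of 32285 genes in the files, 94 gene entries matched and 53 passed, and these 53 held 99.6% of the UMIs of the matching entries. The member with the fewest UMIs was Cdh18 with 143, and the highest of the 41 entries left out was Pcdhb21 with 92. The study measured polyadenylated RNA with 10x Visium, which captures RNA on barcoded spots, in 2 fresh-frozen brain sections, 10 µm thick, of wild-type C57BL/6 mice, labelled as replicates 1 and 2 of ZT12. No genotype, treatment or second time point was compared, and the labels do not say whether the sections came from separate animals. The age and sex of the mice are not given in the sources used here.

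Cadherins join cells through calcium-dependent binding between extracellular domains. Classical cadherins (types I and II) bind catenins at the membrane and link to actin, and neurons of one nucleus or layer often share a combination of them. The clustered protocadherins give single neurons an identity used in self-recognition, the delta protocadherins act in axon growth and synapse formation, and the Celsr genes encode flamingo cadherins, which work with Frizzled and Vangl proteins in planar cell polarity.

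Spots with at least 500 UMIs were kept, 3030 in section 1 and 2531 in section 2, with a median of 18127 and 21555 UMIs per spot. The members held 57366 UMIs of section 1 and 57686 of section 2, or 0.0978% and 0.103% of all UMIs. A median spot had a UMI of 11 members in section 1 and 13 in section 2. Among kept spots 1952 barcodes occurred in both sections, which use the same set of array barcodes. Spots were grouped by anatomical marker genes, none of which is a member, and 15 groups had at least 20 spots in each section. Unless said otherwise, rankings and ranges over groups refer to these 15 tested groups. A spot can hold several cells of different types, and fewer cells of a type cannot be told apart from less RNA per cell. The sections held the groups unevenly: the striatum group had 37 and 243 spots in sections 1 and 2, the hypothalamus group 50 and 263, the brainstem group 265 and 41, and the superficial isocortex group 198 and 24. Check markers that took no part in the grouping were mostly highest in their own group, for example Ntng1 in thalamus at 265 and 229 CPM (UMIs of the gene per 1000000 UMIs of the group in that section). Some were not: Oprk1 in claustrum and layer 6b was at 4.75 and 0 CPM, Coch in CA3 ranked 9 and 6 of 15 groups, and Pcp4 in layer 5 ranked 7 and 9.

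By class, the 53 members were 4 type I cadherins, 13 type II cadherins, 2 other Cdh genes, 3 delta-1 and 5 delta-2 protocadherins, 2 other non-clustered protocadherins, 3 flamingo cadherins, 19 beta and 2 gamma clustered protocadherins. The 14 alpha entries, of which Pcdha11 takes 2 with different gene IDs, together had 34 UMIs and gave no member. In this 3′ assay the alpha and the gamma isoforms share their last exons within each cluster, so counting by symbol cannot separate them. The Pcdhb genes are paralogues of related sequence. Whether reads were shared between them in counting was not tested, and their single-gene values are uncertain to that extent.

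Pcdh8 and Pcdh20 were both highest in the dentate gyrus group and low in thalamus, and their promoters are shown for that reason. Both genes lie on chromosome 14, with another member, Pcdh17, between them. Each sequence is the 250 bases before the transcription start listed by RefSeq on GRCm38.p6, 5′ to 3′ on the gene's strand (minus for both), at chr14:79771313-79771562 for Pcdh8 and chr14:88471397-88471646 for Pcdh20, outside the gene body. Capitals mark a match to TATAAA.
Pcdh8: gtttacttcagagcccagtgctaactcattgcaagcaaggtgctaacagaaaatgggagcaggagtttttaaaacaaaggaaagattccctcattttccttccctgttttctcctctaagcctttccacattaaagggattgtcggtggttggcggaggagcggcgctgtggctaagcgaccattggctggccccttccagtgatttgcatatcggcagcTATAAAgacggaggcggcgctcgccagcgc
Pcdh20: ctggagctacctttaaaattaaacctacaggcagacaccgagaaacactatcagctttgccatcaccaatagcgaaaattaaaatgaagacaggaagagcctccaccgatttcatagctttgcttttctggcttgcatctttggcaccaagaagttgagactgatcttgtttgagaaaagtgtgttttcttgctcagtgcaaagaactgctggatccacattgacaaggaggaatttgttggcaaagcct
The Pcdh8 window was 51.2% G and C and the Pcdh20 window 42.4%, against a median of 52.4% over all 32851 promoters of the table. Of 5 motifs searched on both strands, TATAAA had 1 match in Pcdh8 and 0 in Pcdh20, and 12.4% of all promoters hold it. The E-box letters CAGCTG (held by 13.0% of promoters) and the E-box letters CAGATG (14.4%) had no match in either window. The same was true of the cyclic AMP element core TGACG (17.8%) and the GC box GGGCGG (32.7%). Entries existed for 23 of the 53 members.

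Across the 15 groups the members with the clearest contrasts were hippocampal, thalamic, fibre tract and meningeal, and few clustered Pcdhb genes differed. UMIs were summed per section and group, and 47 members were tested among 13356 genes with edgeR's quasi-likelihood test, with a term for the section. Of these, 28 differed among groups at a Benjamini-Hochberg adjusted p under 0.05, against 58.1% of all tested genes, so their share was near the background. All 3 flamingo cadherins tested differed, 3 of 4 type I and 10 of 12 type II cadherins, 3 of 3 delta-1 and 4 of 5 delta-2 protocadherins, and 1 of 15 Pcdhb genes. The 6 members left out by the filter on low counts were Cdh18, Pcdhb4, Pcdhb8, Pcdhb10, Pcdhb16 and Pcdhgc4. A member was called in a group when its adjusted p was under 0.05 and its level at least 1.5-fold above or below the mean of the other 14 groups. This gave 40 calls higher and 18 lower, and 56 of the 58 had the same sign in each section alone. The calls were chosen from a fit to these same sections, so the shared sign is largely set by the choice and is no separate support. With a section term in the fit, the p-values measure how far differences between groups disagree between these sections, pooled over groups. That spread may be technical.

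**Figure D1:**
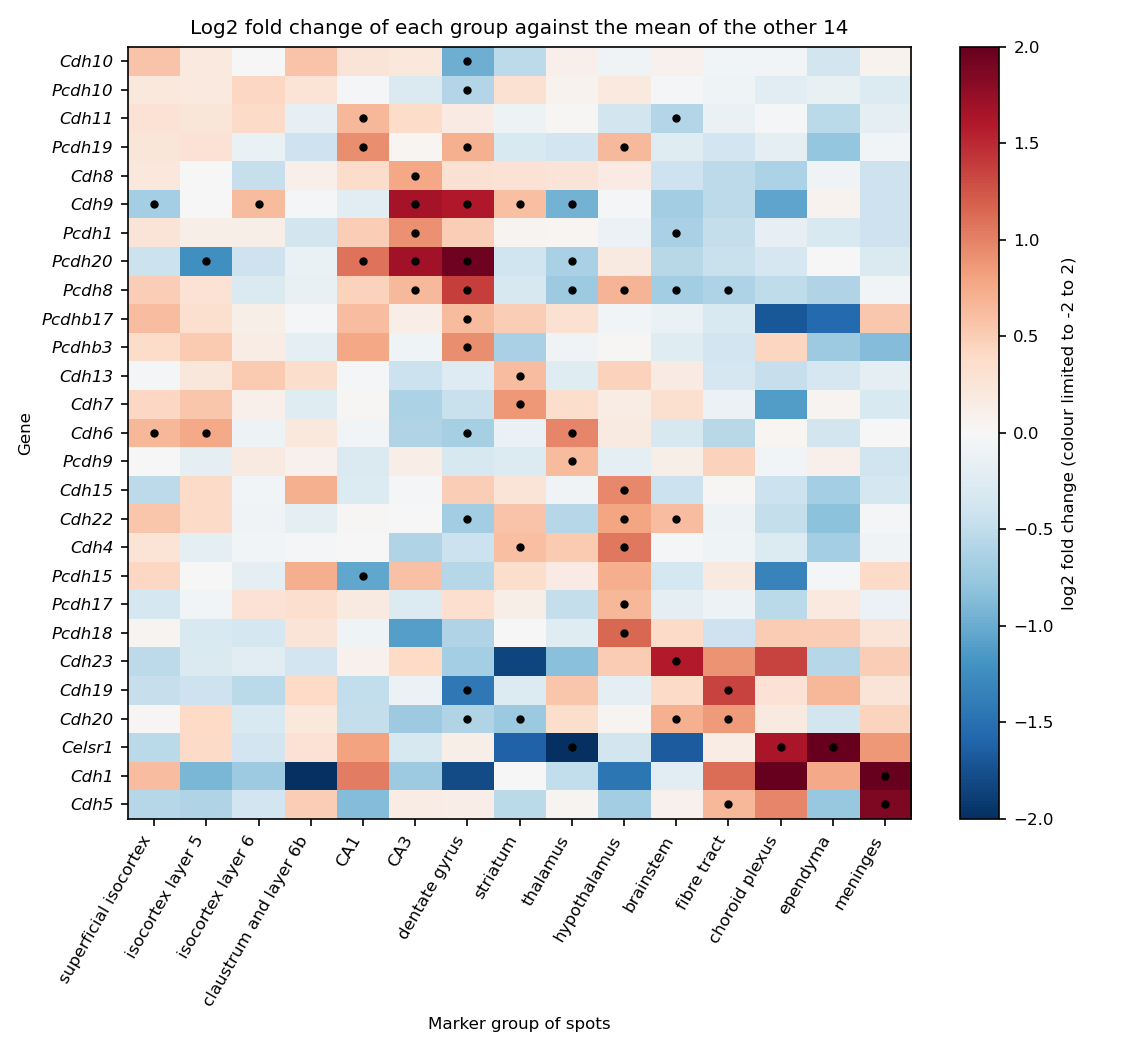
Fitted log2 fold change of the 27 members called in any group (rows) in each of the 15 marker groups (columns) against the mean of the other 14, with a black dot on each call and colours limited to 2 in either direction. Pcdh20 and Cdh9 are red in CA3 and the dentate gyrus, and 10 members have a call higher in one group and lower in another.

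At least 1 member was called higher in 14 of 15 groups, and the calls formed 12 distinct sets. Of all tested genes, 0.142% (claustrum and layer 6b) to 9.46% (meninges) were called higher in a group. From 0% (claustrum and layer 6b) to 4.37% (thalamus) were called lower. Whether other genes would form as many sets was not tested. This is a description of the calls, with no test of a difference between sets. Without 1 of their 2 sums, superficial isocortex, layers 5 and 6, striatum, hypothalamus, brainstem and ependyma each had 0 calls. Superficial isocortex and layer 5 shared one set (Cdh6), and choroid plexus and ependyma shared another (Celsr1). Of 24 members called higher anywhere, 14 were called in 1 group and 10 in 2 or more, led by Cdh9 with 4 groups. Cdh6, Pcdh20, Pcdh19 and Pcdh8 were each called higher in 3 groups. Counting all 53 members, 17 had their highest group in common between the sections, and among the 22 with at least 1000 UMIs, 11 did. The correlation of a member's levels between the sections over the 15 groups had a median of 0.436 over members, a description of levels that share depth and grouping.

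**Figure D2:**
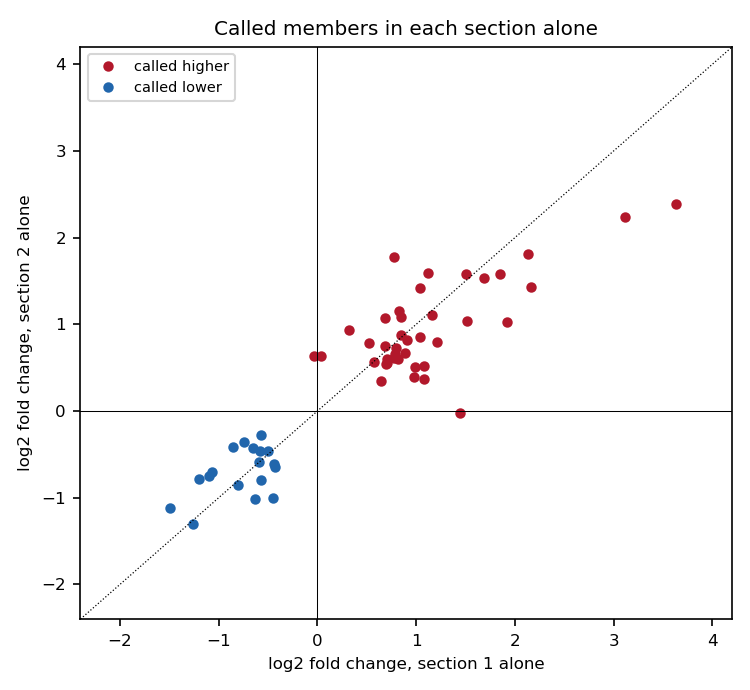
Log2 fold change of each of the 58 calls in section 1 alone (horizontal) against section 2 alone (vertical), with the dotted line of equality. All but 2 points lie in the quadrant of their call: Cdh8 in CA3 is at -0.02 in section 2 and Cdh4 in striatum at -0.03 in section 1. The calls come from a fit to both sections, so their place in the quadrants is largely set by that choice.

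In the hippocampus Pcdh20, a non-clustered protocadherin, was the member with the largest contrast in the dentate gyrus among members of average log2 level of at least 3. Its level was 71.2 CPM in section 1 and 63.3 in section 2 in the dentate gyrus, 58.5 and 53.6 in CA3, and 36.8 and 39.7 in CA1. In each of the other 12 groups it was between 7.51 and 25.4 CPM. In these summed levels the 3 hippocampal groups thus did not overlap the other 12. How many genes separate in this way was not counted. The log2 fold change was 1.95 ± 0.13 in the dentate gyrus (SE, adjusted p = 1.1e-15), 1.68 ± 0.17 in CA3 (5.17e-10) and 1.09 ± 0.15 in CA1 (4.74e-07). Directly compared, the dentate gyrus was above the mean of CA1 and CA3 by 0.53 ± 0.15 (adjusted p = 0.0178, under the 1.5-fold limit). It was not compared with CA3 alone. CA3 was above CA1 by 0.55 ± 0.20, which did not pass (adjusted p = 0.185). In spots thinned to 8000 UMIs, 45.5% of 110 dentate gyrus spots of section 1 had a Pcdh20 UMI (95% exact binomial interval 35.9 to 55.2%) and 29.5% of 88 in section 2 (20.3 to 40.2%). In thalamus, at the same depth, the shares were 8.31% and 9.16%. They were 31.1% and 38.5% in CA3, and 11.9% (5.30 to 22.2%) and 22.4% in CA1. The CA1 share of section 1 lay within the range of other groups of that section, such as 16.3% in claustrum and layer 6b and 18.2% in choroid plexus. Without thinning the shares were 71.8% and 73.9% in the dentate gyrus and 18.9% and 22.1% in thalamus. Intervals cover counting error only, and 351 and 89 kept spots were too shallow to thin.

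Cdh9, a type II cadherin known for its part at synapses of dentate axons on CA3 neurons, separated CA3 from CA1. Its level was 26.1 and 26.8 CPM in CA3 and 23.4 and 28.1 in the dentate gyrus, but 7.95 and 7.88 in CA1. The CA1 values lay within the range of non-hippocampal groups, and the CA3 and dentate gyrus values lay above all others. Cdh9 rose by 1.66 ± 0.20 on the log2 scale in CA3 (adjusted p = 3.45e-08) and by 1.60 ± 0.15 in the dentate gyrus (7.74e-11). CA3 was above CA1 by 1.76 ± 0.26 (adjusted p = 2.19e-05). The dentate gyrus and CA3 had similar levels and were not compared with each other alone. The dentate gyrus was above the mean of CA1 and CA3, of which CA1 was the low one, by 0.82 ± 0.18 (adjusted p = 0.00237). That last call ended without section 2's dentate gyrus sum (0.78, adjusted p = 0.0546).

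Pcdh8, a delta-2 protocadherin known to be induced by neuronal activity, was highest in the dentate gyrus at 81.9 and 83.2 CPM. Over all kept spots section 2 was higher, at 49.2 against 28.8 CPM. Among the tested groups the next levels were 42.6 in superficial isocortex in section 1 and 68.9 in hypothalamus in section 2. The habenula group, which had too few spots to be tested, lay above these next levels in both sections. Pcdh8 rose by 1.38 ± 0.15 in the dentate gyrus (adjusted p = 9.06e-10) and by 0.65 ± 0.21 in CA3 (0.0388), where the call was lost without either CA3 sum (0.251 and 0.358). Against the mean of CA1 and CA3 the dentate gyrus was higher by 0.77 ± 0.18 (adjusted p = 0.00384). Without section 1's dentate gyrus sum it was higher by 0.37, and the call was lost. CA3 and CA1 were not told apart for Pcdh8, with a difference of 0.17 ± 0.25 (adjusted p = 0.89).

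Pcdh19, the X-linked delta-2 protocadherin of a human epilepsy, was called between CA3 and CA1. Pcdh1, a delta-1 protocadherin, was called in CA3 against the mean of the other groups, but in neither direct comparison of hippocampal groups. Pcdh19 was at 52.7 and 51.5 CPM in CA1, 46.5 and 43.0 in the dentate gyrus and 26.1 and 31.7 in CA3. It rose by 0.93 ± 0.13 in CA1 (adjusted p = 4.28e-07) and by 0.71 ± 0.13 in the dentate gyrus (5.97e-05; 0.55, 0.0916, without section 1's sum). CA3 was below CA1 by 0.83 on the log2 scale (log2 fold change -0.83 ± 0.21, adjusted p = 0.0186), a call that was lost without section 1's CA1 sum (0.169) or either CA3 sum (0.325 and 0.146). Pcdh1 was at 123 and 146 CPM in CA3, above 102 and 106 in CA1 and 89.1 and 119 in the dentate gyrus. It rose by 0.91 ± 0.11 in CA3 (adjusted p = 5.69e-08), and CA3 was its highest group in both sections.

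Other calls in the hippocampus were smaller or rested on a section. Cdh11 was higher in CA1 by 0.66 ± 0.14 (adjusted p = 0.00118), at 47.2 CPM in section 1 and 27.9 in section 2, and not without section 1's sum (0.42, 0.342). Pcdh15, a tip-link protein of hair cells, was lower in CA1 at 1.99 and 2.73 CPM (-1.05 ± 0.35, adjusted p = 0.0415), and not without either CA1 sum (0.442 and 0.169). Cdh8 in CA3 was at 28.5 in section 1 and 12 in section 2, and without section 1's sum the difference was 0.02. In the dentate gyrus Cdh10 fell to 6.50 and 7.24 CPM (-0.98 ± 0.24, adjusted p = 0.00268), and lay below the mean of CA1 and CA3 by 1.13 (-1.13 ± 0.29, 0.00801). Both Cdh10 calls were lost without either dentate gyrus sum (0.0594 and 0.0833 for the group, 0.0776 and 0.121 against CA1 and CA3).

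The dentate gyrus had the most calls of any group, 6 higher (Pcdh20, Cdh9, Pcdh8, Pcdhb3, Pcdh19, Pcdhb17) and 6 lower (Cdh10, Cdh19, Cdh22, Cdh6, Cdh20, Pcdh10), and without scaling by TMM (the trimmed mean of M-values) 6 and 3. Cdh22 was not called without section 1's sum (-0.53, 0.303), and Pcdh10 fell under the 1.5-fold limit without section 2's (-0.56, 0.0301). All genes were called at 5.14% higher and 3.08% lower. Without section 1's sum 5 members were called and without section 2's 7. In CA3, 5 members were called higher against 2.81% of all genes (1.15% lower), and 3 without section 1's sum. In CA1, 3 were higher and 1 lower against 3.15% and 2.21% of all genes, and 2 in all without section 1's sum. Between CA3 and CA1, 1 member was higher (Cdh9) and 1 lower (Pcdh19), against 0.719% and 0.629% of all genes, and 1 in all without section 1's CA1 sum or either CA3 sum. Between the dentate gyrus and the mean of CA1 and CA3, 2 were higher and 1 lower, against 2.53% and 1.29%.

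**Figure D3:**
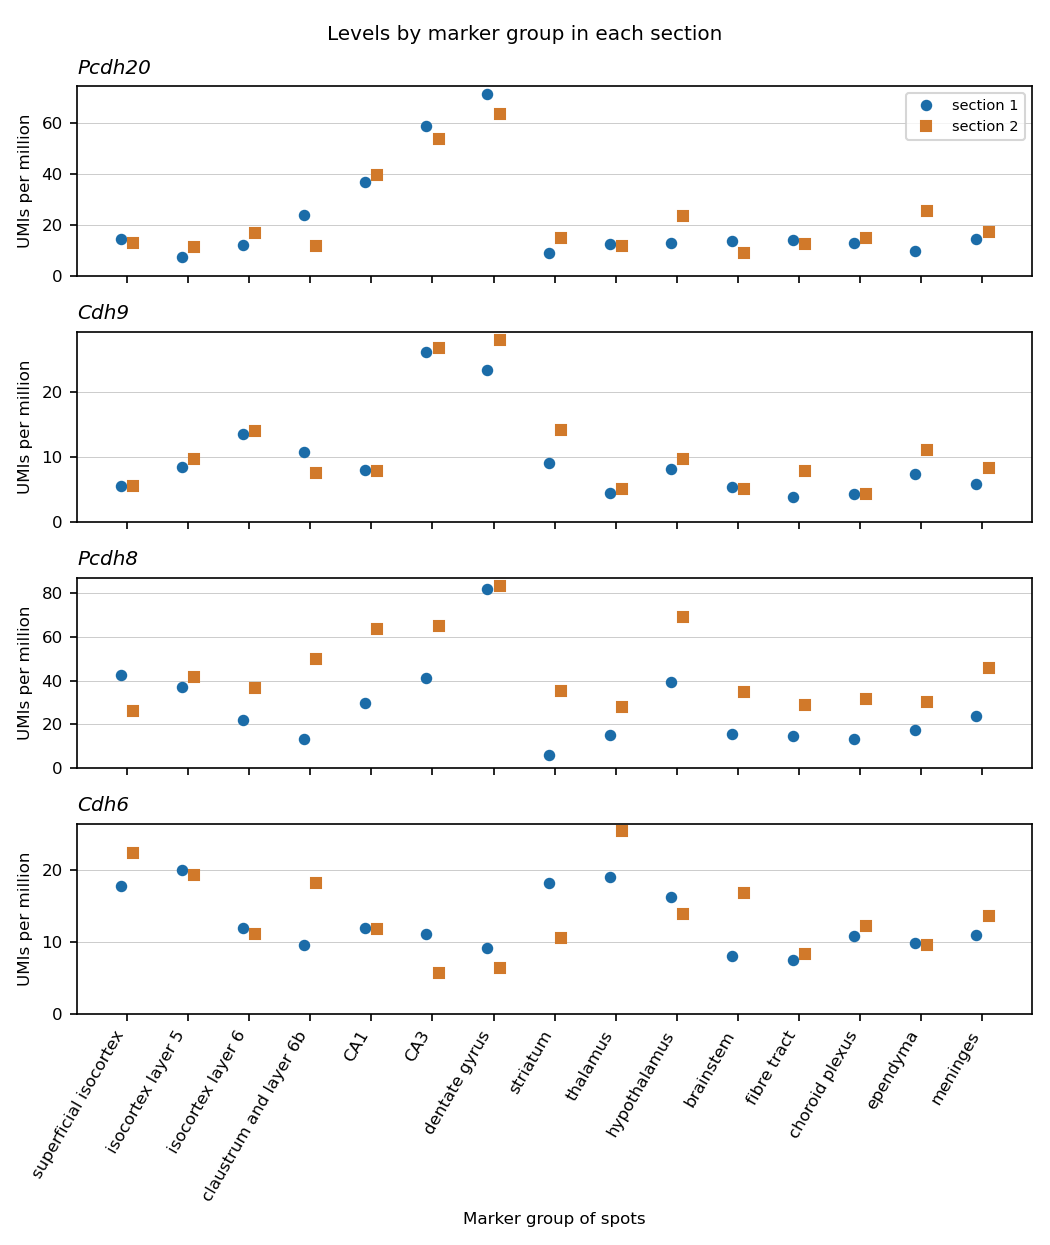
CPM of Pcdh20, Cdh9, Pcdh8 and Cdh6 (1 panel each, vertical axes from 0) in the 15 marker groups, with section 1 as circles and section 2 as squares. Pcdh20 is highest in the 3 hippocampal groups, Cdh9 in CA3 and the dentate gyrus, and Cdh6 at 19.0 and 25.4 in thalamus.

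In the isocortex, Cdh6 and Cdh9, type II cadherins whose genes follow each other among the members on chromosome 15, differed in opposite directions. Cdh6 was at 17.8 and 22.3 CPM in superficial isocortex, 19.9 and 19.3 in layer 5, and 11.9 and 11.1 in layer 6. It rose by 0.66 ± 0.19 in superficial isocortex (adjusted p = 0.0114) and by 0.76 ± 0.19 in layer 5 (0.00657), and both calls ended without section 1's sum (0.728 and 0.614). Cdh9 was at 5.52 and 5.58 in superficial isocortex and 13.5 and 14.0 in layer 6, so these values did not overlap. The section 2 superficial value rests on few UMIs, as 8.33% of its 24 spots had a Cdh9 UMI. Cdh9 rose by 0.63 ± 0.16 in layer 6 (adjusted p = 0.00559), and the call ended without section 1's sum. In superficial isocortex it was lower (-0.68 ± 0.23, adjusted p = 0.0428), and not called without section 1's sum (0.8) or section 2's (0.101).

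Superficial isocortex lay below layer 6 for Cdh9 by 1.22 on the log2 scale (-1.22 ± 0.26, adjusted p = 0.00546). Without section 1's superficial sum it was -1.49 (adjusted p = 0.783) and without section 1's layer 6 sum -1.14 (0.134). The other difference of this kind, Cdh6 above layer 6 by 0.71 ± 0.24, did not pass (0.173). Pcdh20 was low in layer 5 at 7.51 and 11.2 CPM (-1.22 ± 0.23, adjusted p = 0.000367), and the call ended without section 1's sum (-0.86, 0.514).

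Counts of calls in the cortical groups were near the share of all genes. Superficial isocortex had 1 member higher and 1 lower against 3.54% and 3.81% of all genes, 0 without section 1's sum, and 4 higher and 0 lower without TMM scaling. Layer 5 had 1 and 1 against 2.01% and 1.86%, and 0 without section 1's sum. Layer 6 had 1 higher against 2.1% (1.37% lower), 0 without section 1's sum and 3 without section 2's. For superficial isocortex against layer 6, 1 member was lower against 0.464% (0.629% higher), with 0 called without section 1's sum of either group and 2 without section 2's of either. The claustrum and layer 6b group had 0 calls by edgeR and by DESeq2, with 2 members higher and 1 lower at an unadjusted p under 0.05, and few genes were called there at all, 0.142% higher and 0% lower.

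In thalamus, Cdh6 was at 19.0 and 25.4 CPM, and rose by 0.97 ± 0.14 (adjusted p = 4.13e-07). Cdh9 was at 4.45 and 5.0 and was lower there (-0.94 ± 0.19, adjusted p = 0.000149). Pcdh9, a delta-1 protocadherin, was at 130 and 97.1 CPM, its highest group in both sections, and rose by 0.63 ± 0.08 (adjusted p = 1.17e-08). Without section 1's sum the Pcdh9 difference was 0.56, under the 1.5-fold limit, with an adjusted p of 0.000464. Pcdh8 was lower (14.9 and 27.8 CPM, -0.72 ± 0.17, adjusted p = 0.000901), and not without section 1's sum (0.0668). Pcdh20 was also lower (12.3 and 11.9, -0.64 ± 0.16, adjusted p = 0.00174), and not without section 2's (0.0709). Celsr1 had 0.514 and 0.741 CPM, and its call as lower ended without section 1's sum (0.0791). Thalamus had 2 members higher and 4 lower, against 4.25% and 4.37% of all genes, and 3 called without section 1's sum.

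In thinned thalamus spots, 15.3% of 313 (section 1, interval 11.5 to 19.8%) and 17.2% of 262 (section 2, 12.8 to 22.3%) had a Cdh6 UMI, against 7.27% and 7.95% in the dentate gyrus. Without thinning the Cdh6 shares were 28.3% and 35.7% in thalamus and 21.8% and 15.9% in the dentate gyrus, where spots were deeper. The Cdh9 shares in thinned thalamus spots were 3.51% and 3.05%, against 15.5% and 12.5% in the dentate gyrus.

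Of the other genes of the chromosome 15 group, Cdh10 alone was called. It was lower in the dentate gyrus, where Cdh6 was also called lower and Cdh9 higher. The group lies in the order Cdh6, Cdh9, Cdh10, Cdh12 and Cdh18 on chr15:13028699-23477491. Cdh6 and Cdh9 were called in opposite directions in superficial isocortex, thalamus and the dentate gyrus. The Cdh6 call in the dentate gyrus (-0.66 ± 0.23, adjusted p = 0.0371) was kept in 3 of 7 alternatives, and was lost without section 1's sum (-1.07, 0.0754) or section 2's (-0.40, 0.454). The superficial isocortex calls were also lost without section 1's sum. Cdh10 differed among groups (adjusted p = 0.0175), and its dentate gyrus call has the limits given above. Cdh12 did not differ among groups (adjusted p = 0.448), and Cdh18 was not tested because its counts were too low. On chromosome 1, Cdh20, Cdh7 and Cdh19 follow each other among the members. Cdh20 and Cdh19 were both called higher in fibre tract and lower in the dentate gyrus, and in striatum Cdh7 was called higher where Cdh20 was called lower. The dentate gyrus call of Cdh20 (-0.61 ± 0.20, adjusted p = 0.0283) was kept in 2 of 7 alternatives and lost without section 1's sum (-0.36, 0.613). That of Cdh19 (-1.43 ± 0.36, 0.00329) was lost without section 1's sum (-1.71, 0.105) or section 2's (-1.29, 0.0541). The striatum calls were lost without section 2's sum.

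In striatum, Cdh7, a type II cadherin, was at 18.1 and 13.6 CPM, the highest group in both sections, and rose by 0.87 ± 0.20 (adjusted p = 0.00267). The section 1 value rests on 6 UMIs and the section 2 value on 72. The section 1 sum also held 8895 CPM of the 6 choroid plexus markers (1914 in section 2) and 124 CPM of the 5 ependyma markers (27.7 in section 2), and their part in the striatum levels was not tested. Cdh13, a cadherin held to the membrane by a lipid anchor, was at 78.6 and 90.8, its highest tested group in both sections. It rose by 0.62 ± 0.11 (adjusted p = 8.96e-05). For Cdh13 the untested habenula group was above striatum in section 2 and below it in section 1. Cdh9 was at 9.07 and 14.1 and called higher (0.61 ± 0.19, adjusted p = 0.0402), at 0.03 from section 1's values and 0.63 from those of section 2, and this call was kept in 1 of 7 alternatives. Cdh4 was called at 12.1 and 31.5 CPM (0.60 ± 0.15, adjusted p = 0.00564), at -0.03 from section 1's values and -0.08 without section 2's sum (adjusted p = 1). Cdh20 was lower at 9.07 and 8.85 CPM, the lowest group in both sections (-0.75 ± 0.23, adjusted p = 0.0318). The section 1 values of Cdh20, Cdh9 and Cdh4 also rest on few UMIs. Of the 37 striatum spots of section 1, 8.11%, 8.11% and 10.8% had a UMI of these genes. Striatum had 4 members higher and 1 lower against 3.25% and 0.809% of all genes, 2 and 1 without TMM scaling, and 0 without section 2's sum, which held most of its spots. Without that sum the adjusted p-values were 0.639 for Cdh7, 0.426 for Cdh13, 1 for Cdh9 and 0.642 for Cdh20. Cdh20 was not called without section 1's sum either (0.0815).

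In hypothalamus 7 members were called higher, against 2.33% of all genes (1.14% lower), and 4 of them were delta-2 protocadherins, Pcdh8, Pcdh17, Pcdh18 and Pcdh19. Cdh4, a type I cadherin, was at 20.8 CPM in section 1 and 44.6 in section 2, the highest tested group in both. The untested midbrain dopamine group was above it in section 1 and below it in section 2. Over all spots Cdh4 was also higher in section 2, at 27.1 against 13.9. Cdh4 rose by 1.06 ± 0.13 (adjusted p = 5.51e-08). Pcdh17 was at 72.9 and 76.7, also its highest group in both, and rose by 0.67 ± 0.11 (adjusted p = 3.34e-05). Cdh22 was at 23.1 and 37.1 and rose by 0.80 ± 0.14 (6.39e-05), and Pcdh8 was at 39.3 and 68.9 and rose by 0.68 ± 0.16 (0.00262). Pcdh19 was at 41.7 and 46.0 and rose by 0.65 ± 0.13 (adjusted p = 0.000359). Pcdh18 was at 12.7 and 13.9 CPM and Cdh15 at 9.26 and 8.03, on 11 and 8 UMIs in section 1. These last genes were called in this group (1.15 ± 0.28 and 0.96 ± 0.29, adjusted p = 0.00568 and 0.0333), but Pcdh18 and Cdh15 did not pass the test over all groups (0.0596 and 0.239).

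All 7 hypothalamus calls rested on section 2, which held 263 of the 313 spots. Without section 2's sum none was called, with adjusted p-values of 0.312 for Cdh4, 0.731 for Cdh22, 0.591 for Pcdh8, 0.0602 for Pcdh17, 0.284 for Pcdh19, 0.441 for Pcdh18 and 0.607 for Cdh15. The fold changes then stayed above 0, between 0.38 for Cdh22 and 1.23 for Pcdh18. Cdh15 was also not called without section 1's sum (0.0744).

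In brainstem, Cdh20 was at 27.4 and 24.4 CPM and rose by 0.72 ± 0.17 (adjusted p = 0.00171), and Cdh22 was at 27.8 and 24.4 and rose by 0.61 ± 0.16 (0.00483). Cdh23, the partner of Pcdh15 in hair-cell tip links, had 19 and 4 UMIs there, or 4.10 and 5.14 CPM. Pcdh1 was lower at 40.1 and 62.9 CPM (-0.65 ± 0.13, adjusted p = 0.000225), as were Pcdh8 (15.3 and 34.7, -0.69 ± 0.23, 0.0285) and Cdh11 (17.5 and 15.4, -0.59 ± 0.18, 0.0217). Brainstem had 3 members higher and 3 lower against 3.39% and 4.04% of all genes. Section 1 held 265 of its spots, and without section 1's sum 0 were called, with adjusted p-values from 0.359 for Cdh23 to 0.834 for Pcdh8. The Cdh20 difference was then 0.81 (0.372), the Cdh22 difference 0.29 (0.83), the Pcdh1 difference -0.45 (0.44) and the Cdh11 difference -0.47 (0.737). Cdh23 was not called without section 2's sum either (0.0512).

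In fibre tract, Cdh19 and Cdh20, type II cadherins on chromosome 1, were higher. Cdh19, known from Schwann cell precursors, was at 15.6 and 13.1 CPM (52 and 54 UMIs), and rose by 1.34 ± 0.20 (adjusted p = 1.5e-06). The sums of 2 groups of section 1 exceeded that level, striatum at 18.1 on 6 UMIs and ependyma at 17.3 on 7 UMIs. Cdh20 was at 33.6 and 19.7 and rose by 0.85 ± 0.14 (adjusted p = 9.86e-06), and by 0.54 without section 1's sum (0.0796). Cdh5 was called higher at 12.6 and 6.56 (0.67 ± 0.24, adjusted p = 0.0304), and not without section 1's sum (0.36, 0.612). Pcdh8 was lower at 14.4 and 28.9 (-0.62 ± 0.19, adjusted p = 0.00906), and not without section 1's sum (0.175). The oligodendrocyte list of 5 genes summed to 5060 and 5476 CPM there, against a median of 1422 and 1467 over groups. The endothelial list was at 292 and 235 CPM (medians 208 and 212), the mural cell list at 158 and 116 (103 and 95.8) and the red blood cell list at 1763 and 1619 (719 and 1102). The part of these lists in the fibre tract calls was not tested.

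Fibre tract had 3 members higher and 1 lower against 8.34% and 3.11% of all genes. The split was 2 and 5 without TMM scaling, which moved the median of all genes from 0.001 to -0.094 on the log2 scale. Without section 1's sum 1 member was called.

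The surface and ventricle groups were set apart by Cdh5, Cdh1 and Celsr1. Cdh5, the cadherin of endothelial junctions, was at 27.4 and 14.8 CPM in meninges, the highest group in both sections, and rose by 1.87 ± 0.21 (adjusted p = 3.22e-09). Cdh1, the cadherin of epithelia, had 70 and 7 UMIs in meninges, 18.6 and 4.51 CPM. In section 1 its next level was 6.51 in choroid plexus on 3 UMIs, and in section 2 1.21 in CA1. Several groups had no Cdh1 UMI, so its fitted fold is not given (adjusted p = 2.91e-13). Beside these, the 6 endothelial genes summed to 364 and 362 CPM in meninges, against medians of 208 and 212 over groups. The 4 red blood cell genes summed to 9227 and 11582 against 719 and 1102, and the 5 mural cell genes to 418 and 345 against 103 and 95.8; their part in the result was not tested. Meninges had 2 members higher against 9.46% of all genes (1.07% lower).

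Celsr1, a flamingo cadherin of planar cell polarity, was at 24.7 and 12.7 CPM in ependyma, on 10 and 8 UMIs, the highest group in both sections. In choroid plexus it was at 4.34 and 8.71, on 2 and 10 UMIs. Several groups had 0 UMIs of Celsr1, so levels are given in place of fitted folds (adjusted p = 6.4e-05 in ependyma and 0.0414 in choroid plexus). The ependyma call was lost without section 1's sum (0.0605), and the choroid plexus call without either (0.0714 and 0.79). The ependyma markers summed to 795 and 639 CPM in ependyma and to 282 and 187 in choroid plexus. The choroid plexus markers summed to 14365 and 16081 in ependyma, and the oligodendrocyte list to 4212 and 2688 there; their part in the Celsr1 levels was not tested. Both groups had 1 member called higher, against 5.77% (1.03% lower) in ependyma and 7.26% (1% lower) in choroid plexus. For ependyma the count was 0 without section 1's sum and 2 without section 2's. In choroid plexus the split was 1 higher and 3 lower without TMM scaling, which moved the median of all genes from -0.002 to -0.099 on the log2 scale.

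**Figure D4:**
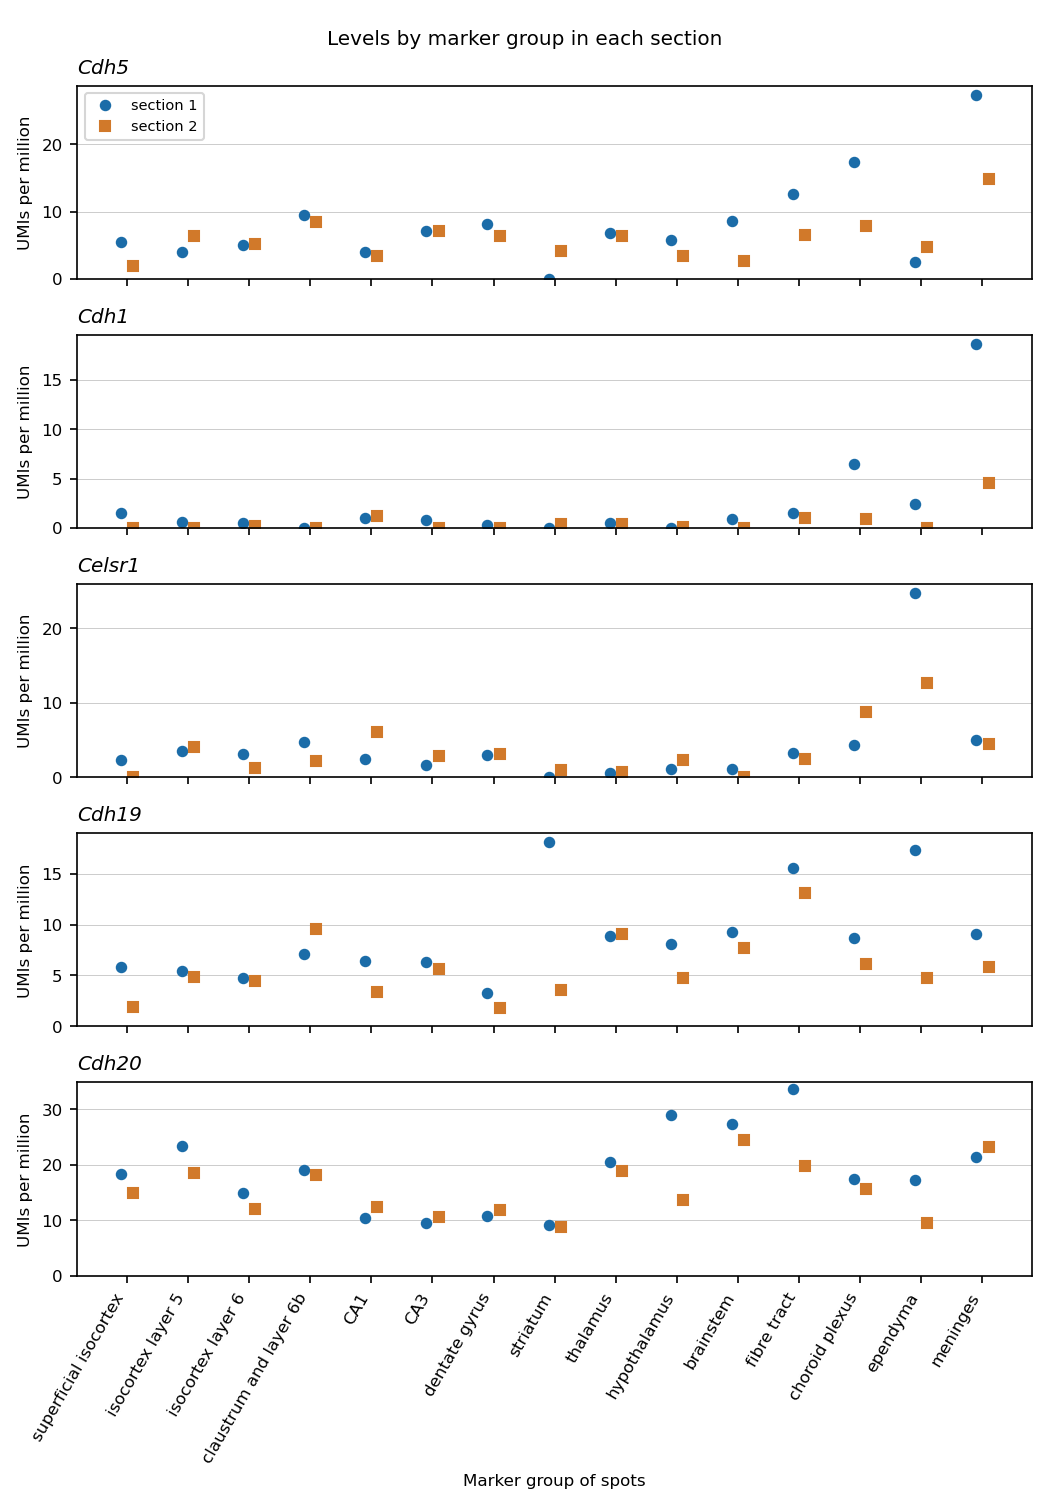
CPM of Cdh5, Cdh1, Celsr1, Cdh19 and Cdh20 (1 panel each, vertical axes from 0) in the 15 marker groups, with section 1 as circles and section 2 as squares. Cdh5 and Cdh1 are highest in meninges and Celsr1 in ependyma in both sections, and the Cdh20 point of fibre tract is higher in section 1 (33.6) than in section 2 (19.7).

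Some of the members with the most UMIs were spread broadly. Others with many UMIs, among them Pcdh9, Pcdh1, Cdh13, Pcdh17 and Pcdh8, were called in groups as given above. Pcdh10 also had a call, in the dentate gyrus. Celsr2, with 13162 UMIs, ranged from 81.8 CPM in fibre tract to 153 in CA3 in section 1 and from 81.9 in fibre tract to 136 in layer 5 in section 2. Cdh2, the main classical cadherin of neurons and their progenitors, ranged from 49.9 to 113 in section 1, highest in thalamus, and from 65.1 to 107 in section 2, highest in hypothalamus. Pcdh10 ranged from 28.2 to 108 and from 50.7 to 102, and was lowest in choroid plexus in section 1 and in the dentate gyrus in section 2. Pcdh7 ranged from 32.5 to 93.1 and from 37.1 to 85.6, highest in layer 6 and in superficial isocortex. Celsr3, which guides axons, ranged from 17.4 to 46.2 and from 24.3 to 43.0, and was highest in the dentate gyrus in both. Celsr2, Cdh2, Pcdh7 and Celsr3 differed among groups (adjusted p = 1.03e-05, 9.69e-06, 1.63e-07 and 0.000209), but none passed the 1.5-fold rule in a group. These 4 therefore varied in level without a single group standing apart by that rule.

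Few clustered protocadherins differed among groups. Both clusters lie, with Cdh2 and Pcdh1, on chromosome 18, which holds 23 members. Summed over 19 genes, Pcdhb levels ran from 56.9 CPM in fibre tract to 108 in CA1 in section 1 (median 76.6), and from 52.4 in ependyma to 93.0 in superficial isocortex in section 2 (median 75.5). The highest group thus differed between the sections. Pcdhb17 alone of the 15 tested differed among groups (adjusted p = 0.0119). It was called higher in the dentate gyrus at 11.7 and 12.2 CPM (0.63 ± 0.22, 0.0433), and not without either dentate gyrus sum (0.398 and 0.163). Pcdhb3 was called there at 6.50 and 5.43 CPM (0.93 ± 0.34, adjusted p = 0.0496), and not without either sum (0.34 and 0.239). The gamma gene tested, Pcdhga12, did not pass (adjusted p = 0.516). Most Pcdhb genes had few UMIs per group, so differences of the sizes above may not have been detectable at this depth.

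**Figure D5:**
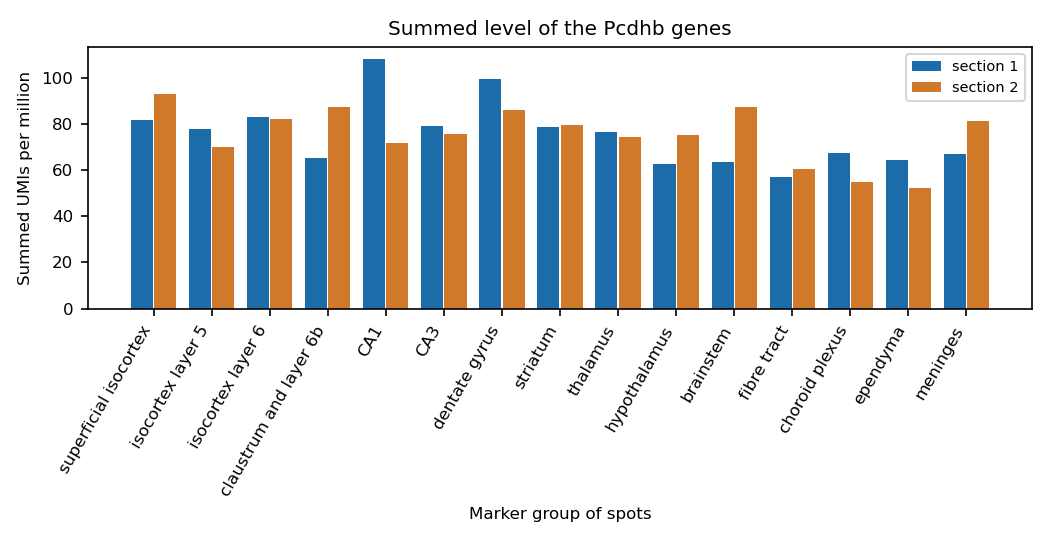
Summed CPM of the 19 Pcdhb genes in the 15 marker groups, section 1 and section 2 as bars from 0. All groups lie between 52.4 and 108, and the highest bar is CA1 in section 1 and superficial isocortex in section 2.

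Genes that work with the members were followed from lists of catenins (8 of 9 tested), planar cell polarity partners (9 of 9) and other cadherin superfamily genes (9 of 10). Among catenins, which tie classical cadherins to actin, 2 were higher in fibre tract (8.34% of all genes), Pkp4 by 1.10 ± 0.07 and Jup by 1.02 ± 0.09. In ependyma 3 were higher (5.77% of all genes), among them Arvcf by 0.99 ± 0.25, and in choroid plexus 1 (7.26% of all genes), Ctnna1 by 1.13 ± 0.13. Jup was lower in CA1 (-0.80 ± 0.12) and in the dentate gyrus (-0.59 ± 0.12), and Ctnna1 in CA3 (-0.70 ± 0.15).

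Of the planar cell polarity partners of Celsr proteins, 2 were higher in thalamus (4.25% of all genes): Vangl1 by 1.60 ± 0.19 and the receptor Fzd6 by 1.06 ± 0.23. Vangl1 was also higher in choroid plexus (1.62 ± 0.40). In brainstem 3 were lower (4.04% of all genes), Prickle2 (-0.69 ± 0.15), Fzd3 (-0.62 ± 0.14) and Prickle1 (-0.62 ± 0.12). Of the other superfamily genes, Clstn2, a calsyntenin, was higher in CA3 (1.13 ± 0.10), above CA1 by 0.80 ± 0.13, and higher in the dentate gyrus (0.86 ± 0.09), the groups where Cdh9 was highest. Fat3 was higher in striatum (1.02 ± 0.17), Dchs1 in ependyma (1.68 ± 0.37), and Fat4 in meninges (1.76 ± 0.40). The adjusted p of these calls is in each case at most 0.00557. Unlike the member calls, calls of genes on these lists were not followed under other settings or with a sum left out.

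DESeq2, with its own size factors, split the calls differently in some groups. It gave 3 higher and 0 lower in CA1, 4 and 0 in striatum, 2 and 1 in brainstem, 2 and 0 in fibre tract, 1 and 0 in superficial isocortex, and 1 and 1 between the dentate gyrus and CA1 with CA3. Of all 64 calls, those of the 3 direct comparisons included, 14 were kept in each alternative with a value and in each leave-one-out fit. They were Pcdh20 in the dentate gyrus, CA3 and CA1, Cdh9 in the dentate gyrus, CA3, CA3 against CA1 and thalamus, Pcdh8 in the dentate gyrus, Pcdh1 in CA3, Pcdh19 in CA1, Cdh6 in thalamus, Cdh19 in fibre tract, and Cdh5 and Cdh1 in meninges. All others were lost in at least 1 leave-one-out fit, where the group is left with a single sum that is assumed to vary like the other groups.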

How the data were processed

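The authors deposited UMI counts for every gene and spot, whole-number counts from Space Ranger with no normalization: version 1.2.2 (section 1) and 2.0.1 (section 2) per the file headers (the submitters' processing notes give mm10 and only the later version), so version and section cannot be told apart. Which annotation release was used is not given in the sources used. Totals over kept spots were 58662871 and 55851559 UMIs.

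For each spot, log2(UMIs per 10000 + 1) of markers with at least 100 UMIs was z-scored over both sections and capped at 4. A spot joined the list of highest mean z if this was at least 0.8 and at least 50% of its markers had a UMI. Lists with under 3 usable markers were dropped, which removed olfactory bulb, decided after seeing the counts. In sections 1 and 2, 865 and 699 spots joined no group. Spots are not replicates, so UMIs were summed per section and group (30 sums) and fitted with edgeR 4.0.16 (R 4.3.3): filterByExpr, TMM factors, section as a term, marker genes left out, Benjamini-Hochberg over 13356 genes (14 residual degrees of freedom). The SE is the log2 fold change divided by the square root of F. Section was kept as a term because both sections hold the same groups. Replicate numbers were not shown to pair animals. Within-section fold changes were taken from log2 CPM, untested. No doublet caller was run, since spots hold several cells, and spot positions were not used.

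Members and lists were chosen with earlier results of these data known. Named were, per comparison, up to 4 called members with the largest rise and 3 with the largest fall among those with the same sign in each section and average log2 CPM of at least 3, members with at least 1000 UMIs by range, and up to 3 called pathway genes. Other called members (Cdh1, Cdh8, Cdh15, Cdh19, Cdh23, Celsr1, Pcdh15, Pcdh18, Pcdhb3, Pcdhb17, and further calls of Cdh4, Cdh20, Pcdh10 and Pcdh19) were named after their values were seen, as were the promoters, motifs and gene order. Alternatives were DESeq2 1.42.0, no TMM, no filter, no section term, stricter grouping, at least 1000 UMIs per spot, and leaving out each sum. A fit of the neuronal groups alone was added after seeing the data. The code was tested on simulated data, where it recovered most of the changes made and the share of false calls was above the nominal threshold, so calls near it are less certain.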

Additional observations from a re-analysis of the deposited data

How the results depend on the processing

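Members differing among groups, 28 as reported, were 20 with no section term, 24 with the neuronal groups alone and between 26 and 30 in the other alternatives and leave-one-out fits. Counts of called members moved more. With DESeq2 they were 1 in superficial isocortex, 4 in hypothalamus, 3 in brainstem, 2 in fibre tract, 2 in ependyma and 0 for superficial isocortex against layer 6. Without TMM they were 4 in superficial isocortex, 3 in striatum, 7 in fibre tract and 4 in choroid plexus. Without the filter they were 2 in choroid plexus and 3 for superficial isocortex against layer 6. With no replicate block (no section term), counts were 0 in superficial isocortex, layer 6, choroid plexus and superficial isocortex against layer 6. They were then 1 in layer 5, striatum, CA3 against CA1 and the dentate gyrus against CA1 and CA3, 2 in brainstem and fibre tract, 3 in CA3, 4 in hypothalamus and 7 in the dentate gyrus. Stricter grouping gave 4 in layer 6 and 6 in meninges, and no value for superficial isocortex, layer 5, brainstem and choroid plexus, which then had too few spots. At least 1000 UMIs per spot gave 2 in choroid plexus and 2 for superficial isocortex against layer 6. With the neuronal groups alone, chosen after seeing the data, counts were 1 in superficial isocortex, 0 in layer 6, 3 in CA3, 2 in striatum, 4 in hypothalamus and 2 for superficial isocortex against layer 6. The cause was not tested. Leaving out each sum of the group gave 0 to 3 in superficial isocortex, 0 to 2 in layer 5, 0 to 3 in layer 6, 0 to 0 in claustrum and layer 6b, 2 to 5 in CA1, 3 to 4 in CA3, 5 to 7 in the dentate gyrus, 0 to 4 in striatum, 3 to 6 in thalamus, 0 to 6 in hypothalamus, 0 to 5 in brainstem, 1 to 6 in fibre tract, 1 to 1 in choroid plexus, 0 to 2 in ependyma, 2 to 2 in meninges, 1 to 2 for CA3 against CA1, 2 to 4 for the dentate gyrus against CA1 and CA3, and 0 to 2 for superficial isocortex against layer 6. Over single calls, DESeq2 kept 45 of 62, no TMM 57 of 64, no filter 58 of 64, no section term 33 of 64, stricter grouping 42 of 52, at least 1000 UMIs 61 of 64 and neuronal groups alone 42 of 56. The sign turned for Cdh4 in striatum (-0.083 without section 2's sum, 0.65 without section 1's, and -0.033 in section 1 alone) and for Cdh8 in CA3 (-0.017 in section 2 alone). With 2 sections of unequal group sizes, each contrast rests on 2 sums, and low-count members could not be resolved at this depth.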

Other observations

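Some marker groups had too few spots in a section to be tested. The cerebellar cortex group, with 172 spots in section 1 and 1 in section 2, held 70 UMIs of Cdh15, a type I cadherin known from muscle and cerebellar granule cells, or 25.2 CPM in section 1, against a highest level of 10.7 among the 15 tested groups of that section (claustrum and layer 6b). Cdh22 was there at 41.0 CPM on 114 UMIs, against at most 30.2 in section 1 elsewhere (striatum). The habenula group (16 and 29 spots) had Pcdh8 at 51.1 and 74.7 CPM and Cdh13 at 45.7 and 94.7. Its check marker Chrna3 was at 0 CPM in section 1, and in section 2 it was lower there than in meninges (5.79 CPM). In section 1 the superficial isocortex markers summed to 344 CPM in the habenula group, against 690 in superficial isocortex and 336 in layer 5. How far the levels of this group are those of the habenula was not tested. In the midbrain dopamine group (69 and 12 spots) Cdh4 was at 22.1 and 29.0 CPM. These are values without a test.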
